A study of Mus musculus with 8 samples.

Results

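The interferon regulatory factors (IRFs) are transcription factors that bind GAAA-containing DNA through a conserved tryptophan-rich domain. Here 8 genes of the family, Irf1, Irf2, Irf3, Irf4, Irf5, Irf7, Irf8 and Irf9, were followed among the 53715 genes counted. They were chosen by name, and each matched 1 gene identifier through a GENCODE mouse annotation. Ribosomal-RNA-depleted total RNA came from bone marrow haematopoietic stem cells. These had been sorted from the LSK fraction (low in lineage markers, high in Sca-1 and Kit) as CD48- CD150+ cells. There were 4 libraries from mice labelled Gata2; Mx1-Cre Heterozygote (Het-labelled) and 4 from mice labelled Gata2 WT (WT), 1 mouse per library. All 8 mice were 8 to 12 weeks old and had received 6 doses of pIpC, a double-stranded RNA mimic that induces interferon. Mx1-Cre is a recombinase transgene with an interferon-inducible promoter, active in many cell types besides stem cells. The labels name it for the heterozygotes only, so transgene and Gata2 allele cannot be told apart as sources of a difference. No group without pIpC was analysed here, so the levels below are all levels after pIpC and no induction was measured.

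When a cell senses double-stranded RNA, kinases activate IRF3 and IRF7, which switch on the type I interferon genes. Interferon then acts through its receptor, Janus kinases and STAT proteins, which join IRF9 to form the complex ISGF3 on the promoters of interferon-stimulated genes. IRF1 is induced by interferon and activates antigen presentation genes, and IRF2 binds the same DNA sites and can oppose it. IRF5 acts below Toll-like receptors, and IRF4 and IRF8 direct lymphoid, dendritic and monocytic development. In mice, both type I interferon and IRF2 are known to govern whether blood stem cells leave quiescence.

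Libraries held between 16750778 and 20042384 counted fragments in the Het-labelled group and between 19037864 and 22861884 in the WT group. Gata2, whose allele defines the labels, was not lower in the Het-labelled libraries, at 35.5 to 61.9 CPM (fragment counts scaled to a common library size by TMM) against 29.1 to 45.3 CPM in WT libraries. Directions below therefore follow the deposited labels. Of 10 markers of the sort and of stem cell identity, 9 were detected in every library, with a summed level over the list of 771 to 878 CPM in Het-labelled and 699 to 967 CPM in WT libraries. Libraries differed in how GC-rich genes were represented. Across genes, the correlation between GC content and the deviation of a library from the mean lay between -0.0988 and -0.0342 in the Het-labelled libraries, and was 0.18, 0.232, -0.162 and 0.0402 in WT replicates 1 to 4. Fewer cells with a transcript and less of it per cell cannot be told apart in such bulk samples.

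Some IRF genes carry, in their own promoters, the letters of motifs known from interferon signalling. RefSeq promoters (GRCm38.p6) were found for all 8 genes, with 11 start sites in total. The 250 bases upstream of each start were searched on both strands for GAAA followed by any 2 bases and a second GAAA, the core of the interferon-stimulated response element bound by IRFs, and for TTCNNNGAA, the gamma-activated site bound by STAT dimers. Of 32851 promoters of that length, 2.98% held the first motif and 7.02% the second. Irf1 and Irf8 held the STAT motif, Irf8 in 2 copies. Irf2 held both motifs close together. The promoter windows that carry these matches, those of Irf1, its antagonist Irf2, and Irf8, are printed below. Capitals mark the matches.
Irf1 (chr11:53769909-53769947, plus strand): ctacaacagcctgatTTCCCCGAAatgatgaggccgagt
Irf2 (chr8:46739495-46739544, plus strand): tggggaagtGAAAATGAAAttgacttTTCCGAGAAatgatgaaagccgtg
Irf8 (chr8:120736172-120736228, plus strand): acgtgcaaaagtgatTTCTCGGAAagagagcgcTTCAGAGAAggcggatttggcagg
The Irf1 match ended 82 bases upstream of the start site. In Irf2 the IRF motif ended 232 and the STAT motif 216 bases upstream, and in Irf8 the copies ended 163 and 145 bases upstream. The letters of either motif were not in the windows of Irf3, Irf4, Irf5, Irf7 and Irf9, nor in those of the second start sites of Irf1, Irf8 and Irf9. A match is a string of letters and was not tested as a binding site.

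Irf9 was the most abundant member, and Irf4 was barely detected. Levels between genes were compared as FPKM, which is CPM divided by the length of the merged exons in kilobases. Irf9, the DNA-binding part of ISGF3, averaged 27.7 ± 4.22 FPKM in Het-labelled and 26.3 ± 3.77 FPKM in WT libraries (SD, n = 4 each), and all 8 of its libraries lay above every Irf2 value. Irf2, at 12.9 ± 2.93 FPKM in Het-labelled and 14.6 ± 1.75 FPKM in WT libraries, and Irf3, at 11.3 ± 4.51 and 15.05 ± 4.62 FPKM in Het-labelled and WT libraries, were not separated, since Irf2 was the higher in 5 of 8 libraries. Irf1 followed with a mean over the 8 libraries of 7.12 FPKM and was below Irf3 in each of them. Irf5 came next at 3.40 FPKM, below Irf1 in all 8 libraries. Irf7 averaged 1.65 FPKM and was below Irf5 in 7 of 8 libraries. Irf8, at 0.302 FPKM, was below Irf7 in all 8. Apart from Irf9 and Irf2, the ranges of each pair of neighbours over the 8 libraries overlapped. The order of the means was the same when the length of the longest coding transcript replaced the merged exon length, but the separations were not. With that length Irf9 averaged 49.15 FPKM and Irf2 40.74 FPKM over the 8 libraries. Irf2 then lay above Irf9 in Het-labelled replicate 4 and in WT replicate 3. Irf3 averaged 22.3 FPKM with that length, and Irf2 was higher than Irf3 in all 8 libraries. For Irf7 the merged exons form 1 unbroken block of 3776 bases, the whole span of the gene, so fragments from its introns are counted too. The merged exons of Irf9 cover 5386 of 6460 bases, beside a longest coding transcript of 2959 bases. Those of Irf3 cover 3442 of 5201 bases, beside 2031 bases. Fragments from introns of the coding transcripts can thus enter the counts of Irf9 and Irf3 as well.

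**Figure D1:**
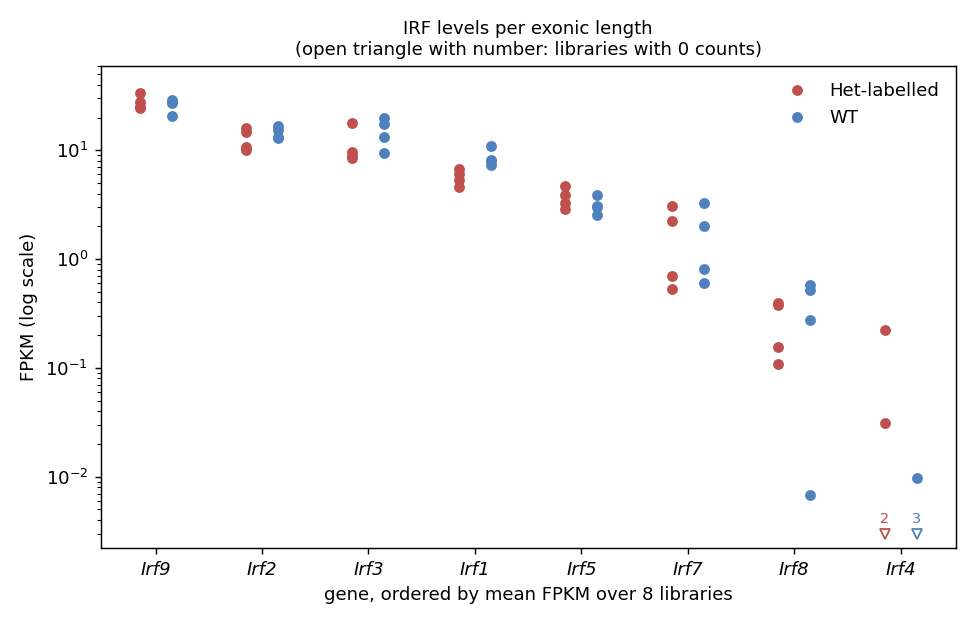
Level of each IRF gene in FPKM on a log axis, 1 point per library, with Het-labelled libraries left of WT libraries. Irf9 lies highest, at 20.8 to 33.7 FPKM, and Irf4 has 0 counts in 2 Het-labelled and 3 WT libraries, drawn as open triangles below the scale of the points.

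Taken as parts of the summed FPKM of the 8 genes, Irf9 made up 40.3% to 45.3% in Het-labelled and 36.4% to 40.3% in WT libraries. Irf1 made up 8.47% to 9.71% in Het-labelled and 10.8% to 14.4% in WT libraries. Irf5 made up 5.33% to 6.27% in Het-labelled and 4.06% to 5.18% in WT libraries. The shares of Irf1 and Irf5 did not overlap between the groups. The measured level of Irf5 did overlap, at 8.45 to 13.7 CPM in Het-labelled and 7.42 to 11.2 CPM in WT libraries. How often such shares separate for other sets of genes was not computed. These shares are a description without a test, and a lower share of one gene raises the others. The sum itself was 75.1, 54.3, 61.6 and 62.0 FPKM in Het-labelled replicates 1 to 4, and 74.2, 75.3, 56.1 and 72.8 FPKM in WT replicates 1 to 4, so the groups overlapped.

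Irf1 was the member whose libraries separated by label, and neither it nor another member passed the test across genes. Irf1 (ENSMUSG00000018899.16, GRCm38 chromosome 11, 53770014 to 53778374, plus strand) measured 26.7, 18.3, 21.4 and 24.0 CPM in Het-labelled replicates 1 to 4, and 31.9, 43.2, 29.0 and 32.1 CPM in WT replicates 1 to 4. Every Het-labelled library lay below every WT library. The means were 22.6 ± 3.59 CPM and 34.04 ± 6.28 CPM (Het-labelled and WT, SD, n = 4 each), and the fold was 0.664 with a 95% interval of 0.481 to 0.916. The log2 fold change was -0.59 (SE 0.21) by edgeR's quasi-likelihood test, where p was 0.0177 unadjusted and 0.850 after Benjamini-Hochberg adjustment over 13992 genes. Permuting the labels exactly over the log2 CPM values gave a two-sided p = 0.0286, the smallest value that 70 assignments of 4 against 4 libraries allow. Any gene without overlap between the groups gets this value, so it restates the separation. It was not adjusted over the members.

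Those values read against the whole table as follows. By edgeR, 0 of 13992 genes (0%) had an adjusted p under 0.05, and the lowest was 0.834, while 792 (5.66%) had an unadjusted p under 0.05, 331 of them (2.37%) higher and 461 (3.29%) lower in the Het-labelled libraries. Without WT replicate 3 the count at an unadjusted p under 0.05 was 1812 of 14456, with 0 called, and with any other library left out it was between 557 and 891. WT replicate 3 differed less from the Het-labelled libraries (chi-square per degree of freedom of 36.3 to 47.8) than from WT replicates 1 and 2 (92.5 and 96.3). Groups did not overlap for 485 genes (3.47%), with 231 (1.65%) where the Het-labelled libraries lay above and 254 (1.82%) where they lay below. Among the 7 tested IRF genes, 1 had an unadjusted p under 0.05 and 1 had groups that did not overlap, in both cases Irf1. DESeq2 called 29 of 13992 genes (0.207%) and no IRF gene, with adjusted p = 0.408 for Irf1, while limma's voom fit with quality weights per sample called 0 and put 1461 genes under an unadjusted p of 0.05. With every library's trend on GC content and gene length taken out, the Irf1 log2 fold change was -0.42 (unadjusted p = 0.0411). Without WT replicate 2 it was -0.44 (unadjusted p = 0.0631).

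**Figure D2:**
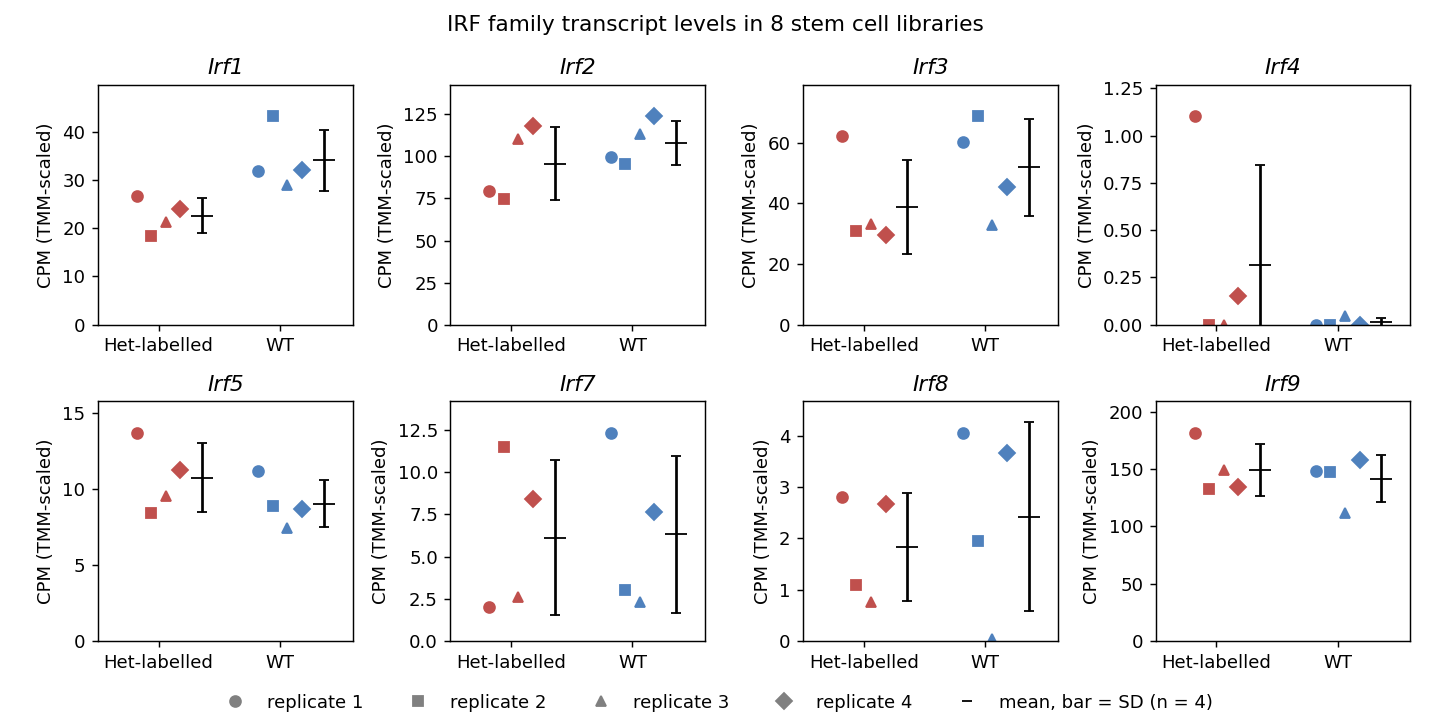
TMM-scaled CPM of each IRF gene, Het-labelled libraries left of WT libraries, 1 symbol per replicate number, with the mean and SD of 4 libraries in black. Irf1 is the gene in which all Het-labelled points, 18.3 to 26.7 CPM, lie below all WT points, 29.0 to 43.2 CPM.

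Irf2, which can displace IRF1 from shared sites, had overlapping groups. Irf2 (ENSMUSG00000031627.9, chromosome 8, 46739732 to 46847458, plus strand) held 79.5, 74.6, 110.3 and 117.8 CPM in Het-labelled replicates 1 to 4, and 99.3, 95.7, 113.0 and 123.8 CPM in WT replicates 1 to 4. WT replicates 1 and 2 lay below Het-labelled replicates 3 and 4. Its log2 fold change was -0.18 (SE 0.18, unadjusted p = 0.339), and the fold's 95% interval ran from 0.675 to 1.16. The ratio of Irf1 to Irf2 in FPKM was 0.625, 0.457, 0.361 and 0.378 in Het-labelled replicates 1 to 4, and 0.597, 0.840, 0.477 and 0.483 in WT replicates 1 to 4. In that ratio the groups overlapped through Het-labelled replicate 1, which lay above 3 of the WT libraries.

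The 3 members placed directly below RNA sensors and Toll-like receptors each varied in their own way. Irf3 (ENSMUSG00000003184.15, chromosome 7, 44997648 to 45002848, plus strand), a factor that is present before infection and activated by phosphorylation, measured 62.0, 30.8, 33.1 and 29.6 CPM in Het-labelled replicates 1 to 4, and 60.3, 68.7, 32.9 and 45.3 CPM in WT replicates 1 to 4. Het-labelled replicate 1 stood far above the other 3 of its label, and WT replicate 3 lay among those 3. The log2 fold change was -0.41 (SE 0.30, edgeR adjusted p = 0.859) with all 8 libraries and -0.72 (edgeR adjusted p = 0.824) without Het-labelled replicate 1. With the GC and length trend removed it was -0.16.

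Irf7 fell into a high and a low set of libraries in both labels. Irf7 (ENSMUSG00000025498.15, chromosome 7, 141262706 to 141266481, minus strand), the factor that amplifies type I interferon and is itself interferon-induced, held 2.00, 11.5, 2.62 and 8.39 CPM in Het-labelled replicates 1 to 4. In WT replicates 1 to 4 it held 12.3, 3.06, 2.30 and 7.66 CPM. Each label thus had 2 libraries in a high set of 7.66 to 12.3 CPM and 2 in a low set of 2.00 to 3.06 CPM. The spread within a label was a coefficient of variation of 75.0% in Het-labelled and 73.3% in WT libraries. Medians over all tested genes were 28.2% in Het-labelled and 29.8% in WT libraries. These medians cover genes of every level, and none was computed for genes near the level of Irf7. The spread is therefore not read as particular to Irf7. The fold between labels was 0.966, with a 95% interval from 0.330 to 2.83, so its difference was not detectable at this spread. The counts behind these values ran from 40 to 298 fragments per library.

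Irf5 (ENSMUSG00000029771.12, chromosome 6, 29526625 to 29541871, plus strand), which carries Toll-like receptor signals to inflammatory genes, measured 13.7, 8.45, 9.54 and 11.3 CPM in Het-labelled replicates 1 to 4, and 11.2, 8.89, 7.42 and 8.68 CPM in WT replicates 1 to 4. The groups overlapped, and the log2 fold change was 0.25 (SE 0.28, unadjusted p = 0.391). The fold's 95% interval ran from 0.774 to 1.82. With the GC and length trend removed the log2 fold change was 0.45 (unadjusted p = 0.102), and without Het-labelled replicate 1 it was 0.12.

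Irf9 had the lowest SE of log2 fold change among the 7 tested members (0.15), and its interval included no change. Irf9 (ENSMUSG00000002325.15, chromosome 14, 55603571 to 55610030, plus strand) measured 181.6, 132.5, 149.0 and 134.4 CPM in Het-labelled replicates 1 to 4, and 148.6, 147.6, 111.8 and 157.9 CPM in WT replicates 1 to 4. The groups overlapped, and the fold was 1.06 with a 95% interval of 0.840 to 1.33. The sign of its log2 fold change, 0.079 with all libraries, turned without Het-labelled replicate 1 (-0.020) and without WT replicate 3 (-0.018). Its exons share 123 bases with Rnf31 on the same strand, and fragments in those bases were given to neither gene.

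The 2 members that direct lymphoid and myeloid differentiation were scarce. Irf8 (ENSMUSG00000041515.9, chromosome 8, 120736358 to 120756694, plus strand), which directs monocyte and dendritic cell development, collected 56, 18, 14 and 52 fragments in Het-labelled replicates 1 to 4, and 98, 40, 1 and 83 in WT replicates 1 to 4. The single fragment of WT replicate 3 set it apart from the other libraries. The fold of 0.757 had a 95% interval from 0.169 to 3.38, and its coefficient of variation was 57.3% in Het-labelled and 75.5% in WT libraries, so no difference was detectable at this spread. Irf4 (ENSMUSG00000021356.10, chromosome 13, 30749226 to 30766976, plus strand), needed for plasma cells and activated lymphocytes, collected 22, 0, 0 and 3 fragments in Het-labelled replicates 1 to 4, and 0, 0, 1 and 0 in WT replicates 1 to 4. It did not pass the filter on low counts. Tested without that filter, it had an edgeR adjusted p of 0.593 over 23967 genes (unadjusted p = 0.0654). A count of 0 allows up to 3 fragments, which is 0.131 to 0.179 CPM at these depths, counting error only. Het-labelled replicate 1 held 22 of the 25 Irf4 fragments of its label. Of 10 B and T cell markers, Pax5, Cd3e and Cd3g had 0 counts in all 8 libraries, and the summed level of the list was 104 to 126 CPM in Het-labelled and 104 to 134 CPM in WT libraries, of which Cd79b alone was 103.4 to 125.3 CPM in Het-labelled and 103.7 to 128.8 CPM in WT libraries. Of 8 dendritic cell markers, Siglech, Ccr9, Itgax and Cd209a had 0 counts in all 8 libraries, and the list summed to 4.16 to 13.8 CPM in Het-labelled and 2.86 to 4.31 CPM in WT libraries. The part of such cells in the Irf4 and Irf8 counts was not tested. Monocyte and macrophage markers summed to 438 to 505 CPM in Het-labelled and 416 to 465 CPM in WT libraries, with 3 of 9 present in every library and none at 0 throughout. Lyz2 alone was 337.0 to 373.1 CPM in Het-labelled and 340.0 to 387.4 CPM in WT libraries. Most of the rest was Ms4a6c, at a mean of 107.8 CPM in Het-labelled and 76.5 CPM in WT libraries. Csf1r averaged 0.653 CPM in Het-labelled and 0.613 CPM in WT libraries. Granulocyte markers summed to 184 to 318 CPM in Het-labelled and 216 to 347 CPM in WT libraries, with 5 of 8 present in every library. The largest part was Prtn3, at 132.1 to 183.6 CPM in Het-labelled and 142.0 to 212.0 CPM in WT libraries.

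**Figure D3:**
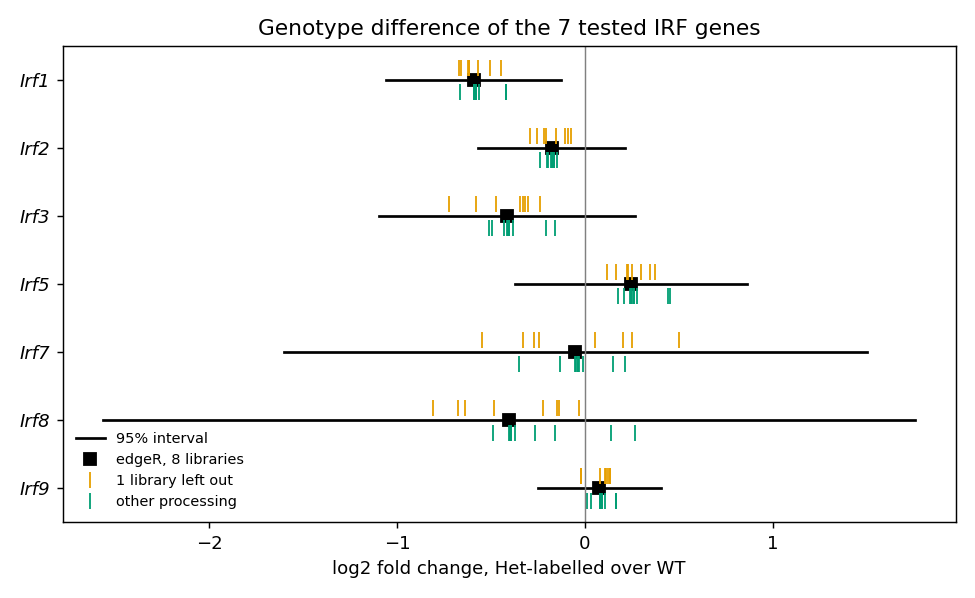
Log2 fold change of the 7 tested IRF genes, Het-labelled over WT. Squares are edgeR estimates from 8 libraries, lines their 95% intervals, orange ticks the estimates with 1 library left out, and green ticks those under other processing. The Irf1 estimates lie between -0.67 and -0.42, all left of 0, while those of Irf7, Irf8 and Irf9 fall on both sides.

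Across the 7 tested genes, 5 had a negative and 2 a positive log2 fold change, with a median of -0.18 beside -0.018 over all 13992 genes, of which 52.0% were negative. The counts of 5 and 2 were the same under the other 3 scalings. With the GC and length trend removed they were 4 and 3. Single libraries were often the highest or the lowest of their label. Het-labelled replicate 1 was the highest of its label in 5 of the 7 genes (Irf1, Irf3, Irf5, Irf8 and Irf9), and WT replicate 3 was the lowest of its label in 6 (all but Irf2). The share of all tested genes with such positions was not computed, so they are not read as particular to the family. The median of the 7 genes was -0.086 without Het-labelled replicate 1 and -0.33 without WT replicate 3.

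Whether members varied together from mouse to mouse was examined over the 21 pairs of the 7 tested genes, and no pair passed the adjusted threshold. With log2 CPM as measured, the highest r was between Irf1 and Irf3 over the 8 libraries, with Pearson's r of 0.758 (exact permutation p = 0.0302, adjusted p = 0.311 over 21 pairs) and Spearman's rho of 0.690 (exact permutation p = 0.0694, adjusted p = 0.695). Without the 2 libraries farthest from the median of Irf1, r was 0.568. With the GC and length trend removed, r over all 8 libraries was 0.491. Irf8 with Irf9 (r = 0.751, exact permutation p = 0.0425, rho = 0.595 with p = 0.132) and Irf5 with Irf9 (r = 0.717, exact permutation p = 0.0444, rho = 0.595 with p = 0.132) had the same adjusted p of 0.311 for r and 0.695 for rho. Without the 2 farthest libraries these r values were 0.492 and -0.163, so the second rests on those libraries. With the mean of each label removed, Irf3 with Irf9 had the highest r (0.846), ahead of Irf3 with Irf5 (0.761), Irf8 with Irf9 (0.755) and Irf1 with Irf3 (0.750). In that setting 6 of the 21 pairs had an unadjusted p under 0.05 and 0 passed after adjustment. Those p values permute what is left after the label means are taken out, so they are approximate. With the GC and length trend removed instead, 0 of the 21 pairs had an unadjusted p under 0.05. There r was 0.422 for Irf3 with Irf9 and 0.0552 for Irf3 with Irf5. For Irf7, whose libraries formed separate sets, no r is given.

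The genes whose log2 CPM followed each member other than Irf7 most closely over the 8 libraries were taken from 8764 other protein-coding genes averaging 5 CPM or more. With so many genes and 8 libraries, high values arise easily, and they serve as a description. Nearest to Irf1 were Arpc4, a subunit of the actin-nucleating Arp2/3 complex (r = 0.959), and Nubp2, an iron-sulfur cluster assembly factor (r = 0.958). For Irf2 they were the centrosomal gene Cep76 (0.920) and the linker histone gene Hist1h1b (0.915), and for Irf3 Dcaf8 (0.972) and the aspartic protease gene Napsa (0.963). Irf5 was closest to Atf2 (0.937) and Tob1 (0.934), and Irf9 to Eya3 (0.957) and Ap1b1 (0.924). No other IRF gene was among these nearest genes.

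Among genes that IRF1 and interferon-gamma are known to raise, most log2 fold changes were positive, unlike that of Irf1. Of 27 members, all tested, 0 passed the threshold by edgeR, 18 were positive and 9 negative, and the median log2 fold change was 0.058. With library size alone as the scaling, 13 were positive and 14 negative, and without WT replicate 3, 14 were positive and 13 negative. At an unadjusted p under 0.05, 1 was higher and 2 were lower. Cd274, which encodes the checkpoint ligand PD-L1, measured 10.8, 19.5, 12.1 and 12.3 CPM in Het-labelled replicates 1 to 4 and 25.9, 36.5, 21.8 and 16.2 CPM in WT replicates 1 to 4. Only Het-labelled replicate 2 overlapped the WT range, and the log2 fold change was -0.88 (SE 0.31, unadjusted p = 0.0171). H2-D1, a classical MHC class I heavy chain, averaged 713.8 ± 124.9 CPM in Het-labelled and 1110.0 ± 386.5 CPM in WT libraries (SD, n = 4 each), a log2 fold change of -0.64 (SE 0.26). Tap1, a subunit of the peptide transporter that loads MHC class I, differed by -0.72 (SE 0.34, unadjusted p = 0.0605). WT replicate 3 stood apart from the other WT libraries in both, at 570.3 CPM for H2-D1, just below the Het-labelled range of 573.5 to 838.9 CPM, and at 28.9 CPM for Tap1, inside it at 24.9 to 50.3 CPM. Ciita, the activator of MHC class II genes, averaged 6.87 ± 4.24 CPM in Het-labelled and 2.43 ± 1.33 CPM in WT libraries (unadjusted p = 0.0247). Each of these 4 genes had an adjusted p of 0.850 by edgeR.

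Targets of ISGF3 likewise held no gene past the threshold by edgeR. Of 33 listed genes 30 were tested, Mx1, Mx2 and Oas2 falling below the filter. There were 18 positive and 12 negative log2 fold changes, with a median of 0.064, and 15 of each with library size alone as the scaling or without WT replicate 3. At an unadjusted p under 0.05, 2 were higher and none lower. Rtp4, an interferon-induced transporter protein, averaged 195.2 ± 35.5 CPM in Het-labelled and 137.1 ± 18.5 CPM in WT libraries, a log2 fold change of 0.51 (SE 0.16, edgeR adjusted p = 0.850). Ifi44 differed by 0.45 (SE 0.19), Xaf1, a partner of apoptosis inhibitors, by 0.41 (SE 0.19) and Trim30a by 0.34 (SE 0.17). Bst2, which encodes tetherin, was the 1 member of 30 whose groups did not overlap, beside 3.47% of all genes tested, at 95.9 ± 0.644 CPM in Het-labelled and 86.6 ± 8.99 CPM in WT libraries, and was named after its values were seen.

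Upstream of the IRFs, none of the interferon ligand genes listed was detected. Ifnb1, Ifna1, Ifna2, Ifna4, Ifna5, Ifng, Ifnl2 and Ifnl3 had 0 counts in all 8 libraries. Of 19 measured sensors, adaptors and kinases, 17 were tested and 0 passed by edgeR, with 10 positive and 7 negative and a median log2 fold change of 0.10. With the GC and length trend removed, 13 were positive and 4 negative. Mavs, the mitochondrial adaptor that relays RNA sensing to IRF3 and IRF7, held 3.86, 7.84, 11.6 and 7.73 CPM in Het-labelled replicates 1 to 4, and 21.8, 26.7, 9.76 and 8.68 CPM in WT replicates 1 to 4. WT replicates 1 and 2 were high, and the rest overlapped. The log2 fold change was -1.11 (SE 0.46, unadjusted p = 0.0369). Irak1, a kinase between Toll-like receptors and IRF5 and IRF7, averaged 87.2 ± 2.58 CPM in Het-labelled and 72.7 ± 6.54 CPM in WT libraries, without overlap, a log2 fold change of 0.26 (SE 0.12, unadjusted p = 0.0518). It was the 1 gene of these 17 without overlap, beside 3.47% of all genes tested. The ubiquitin ligase gene Traf3 and the endosomal transporter gene Slc15a4 differed by 1.93 (SE 1.14) and 0.65 (SE 0.50) at mean levels no higher than 6.15 CPM in either label.

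Of the 10 genes of interferon receptors, Janus kinases and STATs, 0 passed by edgeR, 2 were positive and 8 negative, and the median was -0.085. Under 2 of the other scalings 3 were positive and 7 negative, and with the GC and length trend removed 4 were positive and 6 negative. Stat2, the partner of IRF9 in ISGF3, was low beside Irf9, at 4.21 ± 2.47 CPM in Het-labelled and 7.77 ± 2.91 CPM in WT libraries, and differed by -0.88 (SE 0.53). Stat3 differed by -0.38 (SE 0.20), the interferon-gamma receptor subunit gene Ifngr2 by 0.25 (SE 0.17) and the type I receptor subunit gene Ifnar1 by -0.41 (SE 0.40).

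Factors that bind DNA with IRF4 and IRF8 were mostly negative without any passing. Of 13 genes 11 were tested, 9 of them negative, with a median of -0.16. With the GC and length trend removed, 6 were negative and the median was -0.0092. Spi1, which encodes the myeloid factor PU.1, measured 32.2 ± 8.17 CPM in Het-labelled and 38.7 ± 12.8 CPM in WT libraries (SD, n = 4 each). Its log2 fold change was -0.27 (SE 0.28). The AP-1 family gene Batf differed by -0.20 (SE 0.12), Batf2 by -0.66 (SE 0.49) and Tcf3, the gene of the E proteins E12 and E47, by 0.68 (SE 0.37).

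Among 12 genes whose products bind or regulate IRFs, 5 were positive and 7 negative with a median of -0.096, which turned to 9 positive and 0.12 with the GC and length trend removed. Foxo3, a quiescence factor that represses Irf7 in mouse macrophages, averaged 108.5 ± 23.02 CPM in Het-labelled and 75.9 ± 14.3 CPM in WT libraries, a log2 fold change of 0.52 (SE 0.19, unadjusted p = 0.0217). Irf2bp2, a corepressor named for binding IRF2, differed by 0.42 (SE 0.21), the SUMO ligase gene Pias1 by 0.28 (SE 0.13) and Trim21 by 0.97 (SE 0.57). Of 13 genes described as IRF8 or IRF4 targets 8 were tested, 6 positive and 2 negative, with a median of 0.14, and 0.38 without WT replicate 3. Ctss, the lysosomal protease cathepsin S, averaged 74.7 ± 14.2 CPM in Het-labelled and 43.1 ± 11.1 CPM in WT libraries, a log2 fold change of 0.79 (SE 0.21, unadjusted p = 0.00417). Bcl6, a transcriptional repressor that acts in germinal centre B cells, had groups that did not overlap at mean levels of 0.449 ± 0.253 CPM in Het-labelled and 1.68 ± 0.915 CPM in WT libraries. It was the 1 gene of these 8 without overlap, beside 3.47% of all genes tested. Klf4 differed by 0.80 (SE 0.55) and Cst3, which encodes cystatin C, by 0.14 (SE 0.13). None of the genes of these lists passed by edgeR, where each of Foxo3, Ctss and Bcl6 had an adjusted p of 0.850.

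**Figure D4:**
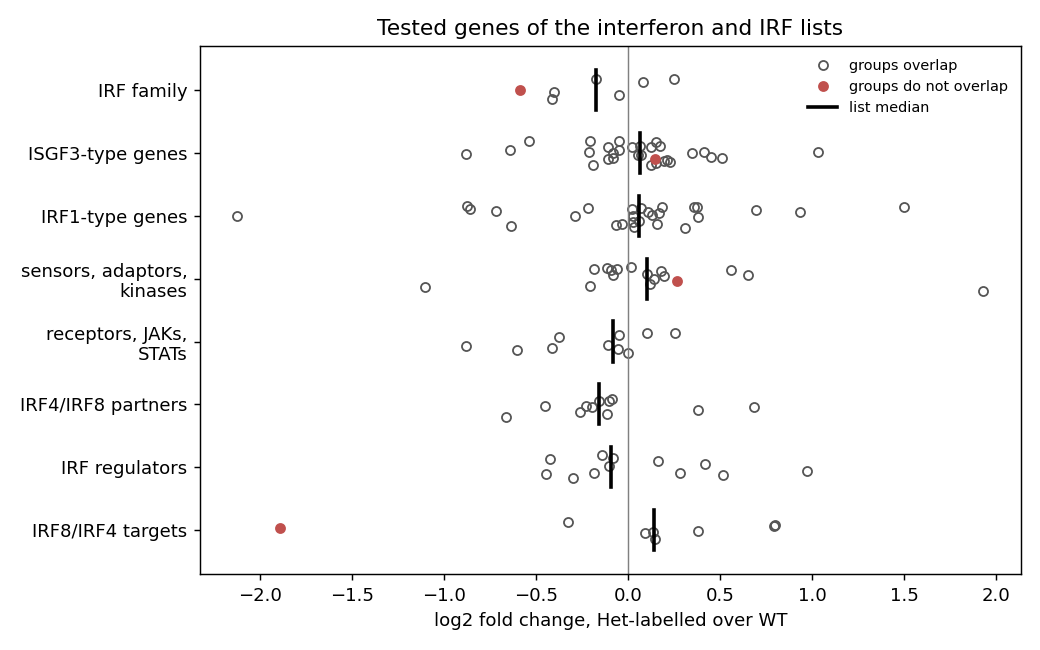
Log2 fold change, Het-labelled over WT, of the tested genes in the IRF family and 7 related lists, 1 circle per gene, with the list median as a black bar. Filled circles are genes whose groups do not overlap (Irf1, Bst2, Irak1 and Bcl6), which holds for 3.47% of all genes tested. Every list spreads on both sides of 0.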

How the data were processed

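The deposited values are raw fragment counts per gene, not normalized by the authors. The submitters' processing notes list cutadapt, Trim Galore, STAR 2.5.1b and the GRCm38 build. Per the file headers, featureCounts counted reverse-stranded pairs with both ends mapped over the exons of GENCODE M17. The headers name version 1.6.2 and the notes 1.5.1. Stranded counting separates antisense neighbours, and no option to keep fragments shared by several genes or loci is in the header's command.

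Groups came from the library descriptions. Symbols were matched for 53620 of 53715 identifiers. edgeR 4.0.16 in R 4.3.3 kept genes by filterByExpr, scaled by TMM and fitted genotype alone with robust quasi-likelihood. Log2 CPM used a prior count of 2. Exact permutation tests ran over libraries. DESeq2 1.42.0 and limma 3.58.1 were alternatives. In 3 simulations, edgeR called 24.8% of 2-fold and 59.7% of 4-fold changes at this spread, and 8 unchanged genes in all. No library was a copy of another: chi-square per degree of freedom was at least 35.4 for each pair. The SE of a log2 fold change is its size over the root of edgeR's F. Intervals on counts cover counting error only.

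All 8 members are named with their values, then up to 4 tested genes per list by unadjusted p, and the 2 nearest genes of each member that averages 5 CPM or more, apart from Irf7, whose libraries form separate sets. The members and lists were chosen with earlier results of these data known. Alternatives were other scalings, tests, filters, a replicate block, a GC and length correction and each library left out. The alternatives for list medians and for exon length were added after the data were seen.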

Additional observations from a re-analysis of the deposited data

Results flagged for a closer look

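In 3 of 16 sets of 4 libraries, 1 library stood apart from the other 3 of its label by Dixon's criterion. For normally distributed values, chance meets it in about 1 set in 20. That rate does not hold for Irf4, whose counts are mostly 0, so the number of flagged sets is not read against it. Irf3 in Het-labelled replicate 1 was at 62.0 CPM, with a gap to the next library of 0.893 of the group's range. Irf4 in the same library was at 1.10 CPM, from 22 fragments, with a gap of 0.861 of the range. Irf4 in WT replicate 3 was at 0.0479 CPM, a single fragment against 0 in the other WT libraries, which is within the limit that a count of 0 allows. A set with a single count above 0 always meets the criterion.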

How the results depend on the processing

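Over 18 alternatives, no IRF gene passed by edgeR, DESeq2 or limma. The number of genes called was 0 in each alternative apart from DESeq2, which called 29, and 0 with each library left out. Irf1 was negative throughout, between -0.67 and -0.42 (unadjusted p 0.00953 to 0.0861, adjusted p 0.255 to 1.0), and Irf2 (-0.29 to -0.074) and Irf3 were negative and Irf5 (0.12 to 0.45) positive throughout. The IRF median was 0.15 with the replicate block and the GC and length correction together, and -0.33 to -0.032 with 1 library left out. Irf7 ranged from -0.55 to 0.50 with 1 library left out and turned positive with the GC and length correction (0.22), with the block added (0.15), without Het-labelled replicate 1 (0.25) or 3 (0.20) and without WT replicate 1 (0.50) or 4 (0.053). Irf8 ranged from -0.81 to -0.032 with 1 library left out and turned positive with the replicate block (0.14) and with block and correction (0.27). Irf9 turned negative without Het-labelled replicate 1 (-0.020) and without WT replicate 3 (-0.018). The causes were not tested. Same-numbered libraries deviated together only weakly (correlations 0.0437, 0.00565, 0.0961 and 0.0215), so the numbers were not taken to pair the mice. With the replicate block 0 genes were called and the IRF median was -0.030. Low counts limit Irf4, and the spread between libraries limits Irf7 and Irf8.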
